A study of Mus musculus with 10 samples.

Results

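The resting transcriptome of hair follicle stem cells was described from the 2 control RNA sequencing libraries of a study of the transcription factor SOX9 in mouse skin. A gene was counted as expressed when it had at least 1 FPKM (sequenced fragments scaled for transcript length and library size) in both libraries, and expressed genes were ranked by the mean of both. This rule kept 13653 of the 37298 gene rows, or 36.6%. The classes of gene followed by name were keratins, transcription factors, receptors, secreted proteins and extracellular matrix. Of the 1144 class members found in the table, 605 were expressed.

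Both libraries came from hair follicle stem cells sorted from telogen back skin as integrin α6 high, CD34+, ScaI- and YFP+ cells, from mice of a mixed C57BL6 background. Control 1 was a male aged 75 days that received RU486 from day 48 to day 61. Control 2 was a female aged 80 days that received RU486 from day 53 to day 66. RU486 activates CrePGR, a recombinase fused to a progesterone receptor (driving promoter: not given in the sources used here). Sample titles call both controls Sox9 Het, whereas their genotype field calls them wild type, so that the number of working Sox9 copies is uncertain. It is not stated if each library was 1 mouse or a pool. Sex, age and library cannot be told apart with 1 library of each, so differences between the controls are given as values with no test.

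The bulge is the part of the hair follicle below the sebaceous gland that holds its stem cells through telogen, when the follicle rests between growth phases. Its cells are epithelial: they carry the basal keratins Krt5 and Krt14 together with Krt15, sit on a basement membrane that they help to build, and express the surface sialomucin Cd34 and the LIM homeodomain factor Lhx2. WNT signals from inside and around the follicle favour growth, while BMP signals and WNT inhibitors favour rest.

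The FPKM values of the libraries summed to 555420 in control 1 and 786914 in control 2, a ratio of 1.42, and the number of reads is unknown. Across expressed genes the libraries correlated with a Pearson r of 0.910 on the log2 scale and a Spearman rho of 0.898, as a description over genes, which are not replicates. The median expressed gene differed 1.52-fold between the libraries in either direction, and 10% of genes by more than 2.64-fold. Rows of small RNAs, pseudogenes and clone names made up 3253 of the expressed rows, and 5714 expressed rows (41.9%) share their coordinates with another row, so that reads of overlapping genes may be split between them. The labelled sexes matched the Y-linked genes, which lay between 7.08 and 55.4 FPKM in control 1 and at no more than 0.00363 in control 2.

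**Figure D1:**
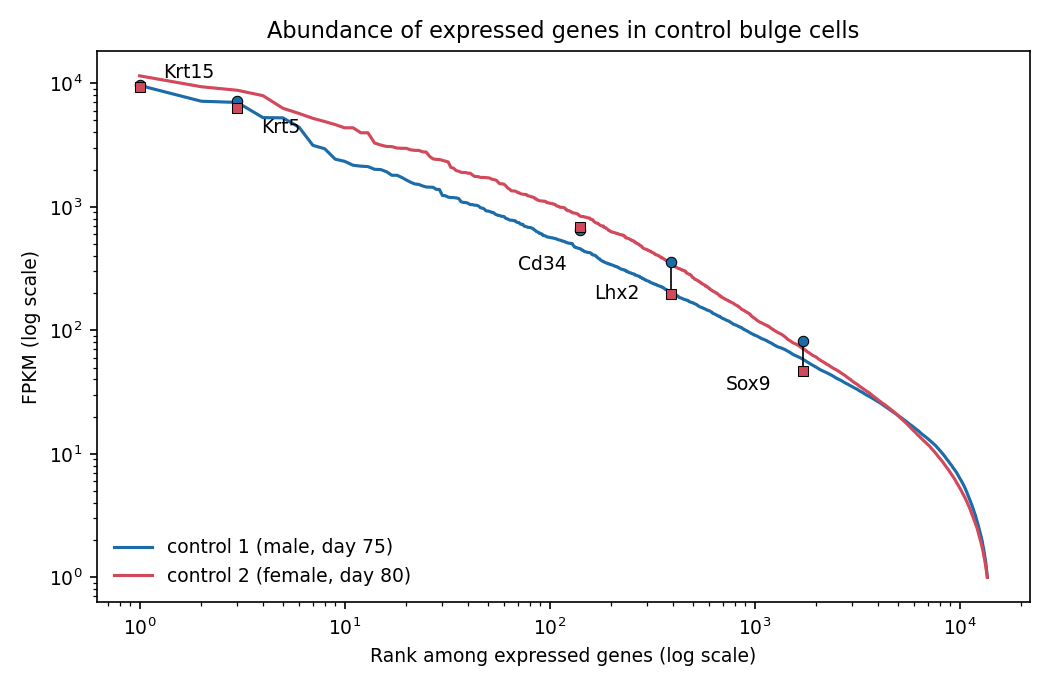
FPKM of the 13653 expressed genes against their rank, both on log scales, with each library ranked on its own; points and joining lines give 5 bulge genes in both controls at their rank by the mean. Krt15 and Krt5 stand at the top, Cd34 and Lhx2 below them, and Sox9 lower at 82.7 and 46.5 FPKM.

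All 4 genes used here as bulge markers were expressed in both controls, although Krt5 is a basal keratin and not particular to the bulge. Krt15, a type I keratin enriched in bulge cells, was at 9613 FPKM in control 1 and 9375 in control 2, which ranks it at 1 and 2 in these libraries. Krt5, the basal type II keratin, was at 7157 and 6277 FPKM. Cd34 was at 652 and 680 FPKM. Lhx2, which helps to keep follicle stem cells undifferentiated, was at 359 and 195 FPKM. The first 3 of these differed little between the controls, and Lhx2 was lower in control 2. In a wider list of 18 bulge genes, 18 were expressed, against 36.6% of all rows and 53.7% of protein-coding rows. Of these, 16 reached 10 FPKM in both libraries, against 51.3% of all expressed genes. The list was chosen with earlier results of these data known. It holds Cd34 and Itga6, whose proteins the sort selected for, and leaves out Krt19, at 0.503 and 1.12 FPKM. Sox9 itself was at 82.7 and 46.5 FPKM. Nfatc1, a calcium-dependent factor linked to stem cell rest, was at 76.7 and 19.8 FPKM. Bmp6, a BMP ligand, was the least abundant of the 18, at 2.21 and 1.96 FPKM.

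A small number of genes carried much of the signal. The 100 most abundant rows of each library held 25.3% of its summed FPKM in control 1 and 29.4% in control 2, and 62 rows were in both lists. At the other end, 6999 expressed genes (51.3%) reached 10 FPKM in both libraries, 790 (5.79%) reached 100 and 39 reached 1000. Leaving out rows of small RNAs, pseudogenes and clones, which took 3 of the first 20 places, the 20 highest means fell into a few groups. Keratins took 4 places, with Krt15, Krt5, Krt10 and Krt14. Mitochondrially encoded genes of the respiratory chain took 5, led by mt-Co3, a cytochrome oxidase subunit, at 4405 and 8774 FPKM and mt-Co1 at 5251 and 5202. The rows mt-Co3, mt-Atp8 and mt-Atp6 share the same coordinates, so their separate values are uncertain. Genes of translation followed, among them the elongation factor Eef1a1 at 5271 and 7935 FPKM, Rpl13a at 1383 and 3974, and Gnb2l1, which encodes the ribosomal scaffold RACK1, at 1180 and 3162. The apolipoprotein gene Apoe was at 6996 FPKM in control 1 and 11491 in control 2, where it ranked above Krt15. The other places went to the galectin Lgals7, Tpt1, Krtdap, S100a6, Dmkn and the immediate early gene Fos.

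Keratins build the intermediate filaments of epithelial cells from pairs of a type I and a type II chain. Of 51 keratin genes in the table, 19 (37.3%) were expressed, against 36.6% of all rows and 53.7% of protein-coding rows. Together keratins held 4.34% of the summed FPKM in control 1 and 3.42% in control 2. Of the 19, 12 reached 100 FPKM in both libraries, and Krt7, at 1.97 and 1.66 FPKM, was the lowest. Of the keratins below the threshold, 7 were listed at 0 in both. The 4 most abundant, Krt15, Krt5, Krt10 and Krt14, made up 85.1% and 81.8% of all keratin FPKM. Among type I chains, 9 of 28 were expressed. Krt14, the usual partner of Krt5, was at 2002 and 2415 FPKM. Krt10, a chain of the cell layers above the basal layer, was at 1729 and 3973 FPKM. Krt17, known from follicle and stress-activated epidermis, was at 297 and 703 FPKM, and Krt24 at 408 and 395.

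Among type II chains, 10 of 23 were expressed. Krt77 was at 918 and 1902 FPKM. Its relative Krt1, the partner of Krt10, was at 551 and 482 FPKM. Krt10 was 2.30-fold higher in control 2, and Krt1 was close in both. Krt6a, found in the inner layer of the bulge and in wounds, was at 545 and 413 FPKM, with the near-identical Krt6b at 173 and 119; reads of this pair may be split between them. Krt80 was at 339 and 342. The simple-epithelium keratins were at the low end: Krt8 at 0.112 and 0.799, Krt18 at 0.0235 and 0, and Krt19 at 0.503 and 1.12 FPKM. Krt19 is often used as a bulge marker, and here it missed the level of 1 in control 1. Keratins of the hair shaft and inner root sheath were nearly all below the threshold, with Krt71 at 1.07 and 0.815 FPKM and Krt27 at 0.247 and 0.275. Exceptions were the root sheath chain Krt25 at 16.9 and 12.97 FPKM, the hair keratin Krt32 at 7.49 and 14.4 and Krt75, of the companion layer, at 8.23 and 14.6. Krt13, a keratin of internal epithelia, was listed at 6.07 in control 1 and 0.210 in control 2.

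**Figure D2:**
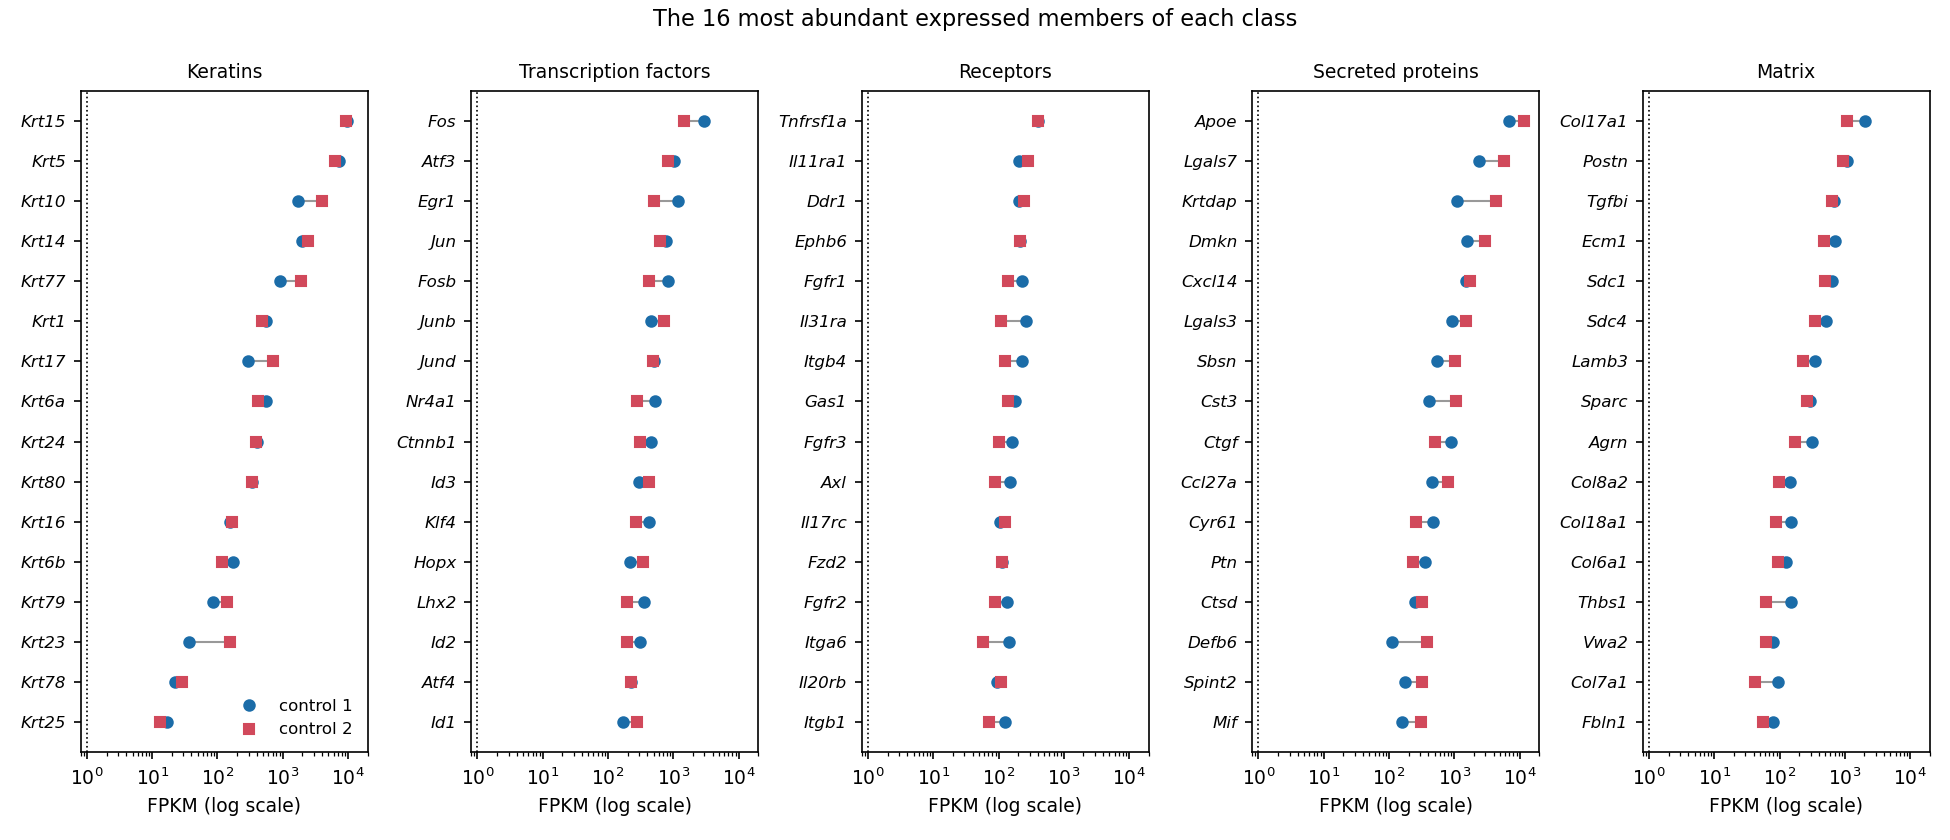
FPKM on a log scale of the 16 most abundant expressed genes of each class, with a circle for control 1, a square for control 2 and a line joining them; the dotted line marks 1 FPKM. Secreted protein genes reach as high as keratins, transcription factors are led by Fos, and the highest receptor, Tnfrsf1a, stays near 400 FPKM in both controls.

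Transcription factors had the largest expressed share of the listed classes, whose members were chosen. Of 368 members, 229 (62.2%) were expressed, against 53.7% of protein-coding rows and 36.6% of all rows. Transcription factors held 3.14% of the summed FPKM in control 1 and 1.64% in control 2. The immediate early and stress factors of the AP-1, ATF and EGR families took first place, with 25 of 29 members expressed and 51.5% and 45.8% of the FPKM of the whole class. Fos was at 2950 and 1438 FPKM. Atf3, a stress-induced factor, was at 1031 and 837. Egr1, an early response factor, was at 1187 and 514. Jun, the main partner of Fos, was at 781 and 619. The 8 most abundant transcription factors all belonged to this list, which also holds the early response gene Nr4a1. Fos, Fosb, Egr1 and Nr4a1 were lower in control 2, and Junb was higher there. All these values are from sorted cells, and whether the early response genes have such levels in unsorted skin was not tested.

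Other families had lower tops. In the homeodomain family 28 of 58 were expressed. Hopx, an atypical homeodomain protein that marks bulge and other stem cells, was at 216 and 343 FPKM. Irx2 was at 124 and 151. Barx2 was at 57.8 and 70.4 FPKM. Lhx2 was the only one of these 4 that was lower in control 2. The SOX family had 7 of 18 expressed. Sox9 was the only member above 10 FPKM in both controls, with Sox21 next at 9.04 and 9.24 FPKM. Sox2, a dermal papilla and Merkel cell factor, was listed at 0 in both. Trp63, the p63 gene that maintains stratified epithelia, was at 252 and 136 FPKM and led its family, in which 26 of 31 were expressed. In the KLF and SP family, with 17 of 25 expressed, Klf4 was at 424 and 268 FPKM and no other member reached 100.

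Helix-loop-helix factors were led by their inhibitors. Id3 was at 299.6 and 422 FPKM, Id2 at 314 and 198, and Id1 at 168 and 275. These ID genes are textbook targets of BMP signalling. Hes1, a target of Notch, was at 48.9 and 147 FPKM, and Myc at 67.3 and 55.04. In this family 36 of 52 were expressed. Among the mediators of WNT, BMP and related signals 30 of 39 were expressed. Ctnnb1, the gene of β-catenin, was at 460 and 305 FPKM. Of its DNA-binding partners, Tcf7l1 was at 19.5 and 5.41 and Lef1 at 0.733 and 0.627. The 4 SMAD genes named next, which carry BMP and TGF-β signals, were all expressed. Smad4 was at 46.5 and 26.7 FPKM, Smad5 at 44.8 and 18.6, Smad1 at 21.7 and 14.2, and Smad2 at 19.9 and 14.2.

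In the family of NFI, TBX, PAX and STAT factors 24 of 44 were expressed. Tbx1, a T-box factor of follicle stem cells, was at 202 and 185 FPKM. Nfib was at 155 and 52.2 and Nfix at 139 and 69.4. Of these 3, Tbx1 differed least between the controls and Nfib most. Forkhead genes were the least abundant family by their top member, with 15 of 37 expressed; Foxp1 was at 43.3 and 15.1 FPKM and Foxc1, a factor of bulge quiescence, at 30.3 and 21.7. Of 35 nuclear receptors 21 were expressed. Vdr, the vitamin D receptor, needed for hair cycling, was at 214 and 94.2 FPKM. Rarg, the epidermal retinoic acid receptor, was at 141 and 124. The sex steroid receptor gene Esr1 was below the threshold at 0.241 and 0.279.

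Receptors were expressed for 138 of 239 members (57.7%), against 53.7% of protein-coding rows. Of the 138, 10 reached 100 FPKM in both libraries, and the class held 1.04% and 0.547% of the summed FPKM. Cytokine and TNF receptors were the most numerous, with 35 of 42 expressed. Tnfrsf1a, the main TNF receptor, was at 404 and 397 FPKM, the highest of all receptors. Il11ra1 followed at 209 and 287 FPKM. Il31ra, the receptor of an itch cytokine, was at 260 and 109. Growth factor receptor kinases were expressed for 20 of 39. Ddr1, a collagen receptor, was at 203 and 248 FPKM. Fgfr1 was at 229 and 140 and has a further row at the same coordinates. Fgfr3 was at 162 and 99.99, Fgfr2 at 133 and 88.8, and Egfr at 83.1 and 28.6. Kit, a receptor of melanocytes, was at 0.157 and 0.0575 FPKM and Pdgfra, a receptor of mesenchyme, at 0.136 and 0.0661.

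Almost every gene in the WNT receptor list was present: 16 of 17 (94.1%) were expressed, against 53.7% of protein-coding rows. Besides Frizzled and LRP genes, the list holds the R-spondin receptor genes Lgr4, Lgr5 and Lgr6, and Rnf43 and Znrf3. The remaining Fzd4 was at 1.79 and 0.802 FPKM. Fzd2 was at 114 and 112, the highest of the Frizzled genes. Lgr5, a receptor for R-spondins that marks the lower bulge and hair germ, was at 137 and 43.8 FPKM. Its relatives Lgr4 and Lgr6 were at 53.1 and 32.3, and at 23.9 and 13.1. Fzd2 hardly differed between the controls, whereas Lgr5 was 3.13-fold higher in control 1. The BMP type I receptor Bmpr1a was at 43.1 and 20.5 FPKM, in a family with 9 of 14 expressed. Hedgehog pathway receptors were led by the co-receptors Gas1 at 182 and 140 FPKM and Boc at 68.5 and 61.3, with Smo at 41.1 and 33.5 and Ptch1 at 21.6 and 10.3. Notch1 was at 54.9 and 18.4.

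Integrins anchor basal cells to the basement membrane, and 12 of 26 were expressed. The chains of the hemidesmosome, Itgb4 and Itga6, were at 230 and 127 and at 145 and 58.2 FPKM. Itga6 is also the antigen used in the sort. Itgb1 was at 125 and 71.1 and Itga3 at 96.6 and 51.6. All 4 were higher in control 1. Ephb6, an ephrin receptor without kinase activity, was at 215 and 217 FPKM in a family with 6 of 14 expressed. G protein-coupled receptors were expressed for 22 of 55. Ednra, an endothelin receptor, was at 55.1 and 34.7 FPKM.

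Secreted proteins were expressed for 147 of 329 members (44.7%), against 53.7% of protein-coding rows. The class held 4.13% and 4.85% of the summed FPKM. Apoe, Lgals7, Krtdap and Dmkn made up 52.7% of the class in control 1 and 64.3% in control 2. Lgals7, a galectin of stratified epithelia, was at 2430 and 5693 FPKM. Krtdap, a keratinocyte differentiation protein, was at 1085 and 4361. Dmkn, a suprabasal secreted protein, was at 1580 and 2992. All 4 were higher in control 2, and the last 2 are genes of differentiating epidermis. Of 58 cytokine and chemokine genes, 17 were expressed. The chemokine Cxcl14, common in resting epithelia, was at 1518 and 1757 FPKM, and Ccl27a, which draws T cells to skin, at 461 and 788, although reads may be shared with its close copy Ccl27b. Ctgf and Cyr61, matricellular proteins and textbook targets of YAP, were at 901 and 499.9 and at 466 and 259 FPKM.

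The genes listed as WNT inhibitors exceeded those listed as WNT ligands in summed FPKM. Of 23 WNT and R-spondin genes 7 were expressed, and their summed FPKM was 63.5 in control 1 and 69.8 in control 2. The 14 genes listed as inhibitors, 5 of them expressed, summed to 601 and 540 FPKM. Dkk3 was at 234 and 168 FPKM. Sostdc1, which blocks both WNT and BMP ligands, was at 163 and 112, and Sfrp1, which binds WNT proteins, at 162 and 138. Dkk1, the classic WNT blocker, was at 0.0194 and 0.230 FPKM. The most abundant ligands were Wnt7b at 15.4 and 18.4, Wnt4 at 16.9 and 11.8 and Wnt10a at 13.4 and 13.8. Of the 5 expressed genes of the inhibitor list, Dkk3, Sostdc1 and Sfrp1 were above 100 FPKM in both controls. Sostdc1 and Sfrp1 each exceeded the ligand sum in both. Dkk3 and Dkkl1 are counted in the inhibitor sum, and whether they block WNT was not tested. Dkkl1 was at 30.1 and 111 FPKM and Wif1 at 11.2 and 10.95.

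Antagonists of the BMP and activin pathways came next. Grem1, a secreted BMP antagonist, was at 170 and 69.6 FPKM, Fst, which binds activins, at 121 and 53.1, and Nog at 42.1 and 38.5. The ligand Bmp2 was at 15.5 and 5.68 and Bmp6 at 2.21 and 1.96, below each of these antagonists. Both ligands were picked from a larger family, whose ligands and antagonists were not summed. Latent TGF-β binding proteins led the family, with Ltbp2 at 211 and 152 FPKM and Ltbp4 at 168 and 137. In this family 20 of 43 were expressed. Among growth factors 35 of 68 were expressed. Ptn, the heparin-binding factor pleiotrophin, was at 359 and 231 FPKM and Angptl7 at 184 and 257. Igfbp3, which binds insulin-like growth factors, was at 99.3 and 241. Fgf18, a bulge ligand that keeps follicles in telogen, was at 33.8 and 25.7 FPKM, and Pdgfa, a signal to dermal cells, at 62.2 and 51.8. Shh, the growth-phase Hedgehog ligand, was listed at 0 in both. Guidance cues were led by Sema3c at 86.5 and 35.1 FPKM.

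Proteases and their inhibitors were expressed for 32 of 56. Cst3, the cysteine protease inhibitor cystatin C, was at 407 and 1067 FPKM. Timp2, an inhibitor of matrix metalloproteases, was at 254 and 185. Ctsd, a lysosomal protease, was at 249 and 315, and Spint2 at 178 and 318. Klk7, a protease of the shedding outer epidermis, was at 61.6 and 241 FPKM. Cst3 and Klk7 were more than 2-fold higher in control 2, and Timp2 was lower there.

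Matrix genes were expressed for 72 of 157 (45.9%), against 53.7% of protein-coding rows. Of the 72, 4 carried 52.3% and 53.2% of the FPKM of the class. Col17a1, the transmembrane collagen of the hemidesmosome that holds bulge cells in place, was at 2012 and 1079 FPKM. Postn, the gene of periostin, was at 1068 and 950.3. Tgfbi, a TGF-β-induced adhesion protein, was at 678 and 644, and Ecm1 at 695 and 476. Postn and Tgfbi changed little between the controls and Col17a1 was lower in control 2. Of 43 collagens 16 were expressed; after Col17a1 came Col8a2 at 144 and 99.4 FPKM, Col18a1 at 149.5 and 89.0 and Col6a1 at 126 and 94.9. Col7a1, the anchoring fibril collagen, was at 96.2 and 41.5. The fibrillar collagens differed: Col5a2 was at 21.5 and 14.5 and Col1a2 at 14.8 and 7.40 FPKM, while Col1a1 was at 1.80 and 0.802 and Col3a1 at 0.0637 and 0.0233.

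Laminins and basement membrane genes were expressed for 14 of 23. The laminin chain gene Lamb3 was at 344 and 227 FPKM and Lama3 at 60.6 and 22.5. Agrn, a heparan sulfate proteoglycan, was at 313 and 175. Lama5 was at 44.9 and 49.0. Lamb3, Lama3 and Agrn were higher in control 1, while Lama5 was close in both. Npnt, the bulge-made ligand to which arrector pili muscle attaches, was at 38.5 and 31.8 FPKM. Sparc was at 288 and 260 and Thbs1 at 149 and 62.3, in a family with 10 of 17 expressed. Among proteoglycan and hyaluronan genes 14 of 36 were expressed. The syndecans Sdc1 and Sdc4, cell surface heparan sulfate carriers, were at 633 and 504 and at 512 and 355 FPKM. Cspg4 was at 65.4 and 26.1. Fbn1 and Vcan, genes of dermal fibres and dermal papilla, were at 0.0437 and 0 and at 0.164 and 0 FPKM.

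Promoters were compared across levels because the most abundant genes include many that are known as tissue genes. Promoter sequences were those of RefSeq for the build GRCm38.p6, 300 bases long from 250 before to 50 after each start, matched by gene. The motif searched was TATAAA, read on the sense strand only from 40 to 15 bases before the start. It was found in 1.99% of all 32851 promoters of this length, and for 2.98% of the 16220 protein-coding genes with a promoter (79.7% of those in the table). It stood before 1.46% of the 4122 protein-coding genes with a lower FPKM of 1 to 10, and before 1.14% of 4307 genes between 10 and 100. Between 100 and 1000 FPKM it stood before 4.46% of 404 genes, and from 1000 FPKM on before 5 of 23 genes (21.7%). In the group below 1 FPKM the share was 4.76%, but 78.7% of its genes had a promoter, less than the 80% set for such a comparison, so that comparison is void. The set of all protein-coding genes includes this group and, at 79.7%, also lies below 80%. Its shares are therefore printed without a comparison. No steady rise of the motif with level was seen. The 5 genes with the motif from 1000 FPKM on were Krt10, Krtdap, Fos, S100a4 and Aqp3. On either strand and anywhere in the 300 bases, the share was 14.3% of all protein-coding genes with a promoter and 13.6% of all promoters. In the 4 expressed groups it was 7.98%, 7.80%, 15.3% and 34.8%. An observed to expected ratio of CpG of at least 0.6, the usual sign of a CpG island promoter, was found for 74.6%, 82.7%, 75.2% and 43.5% of these groups, for 53.1% of all protein-coding genes with a promoter and for 35.8% of all promoters, many of them of non-coding genes. The top group is small, and 4 of its 27 genes, among them Krt15, had no promoter matched.

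**Figure D3:**
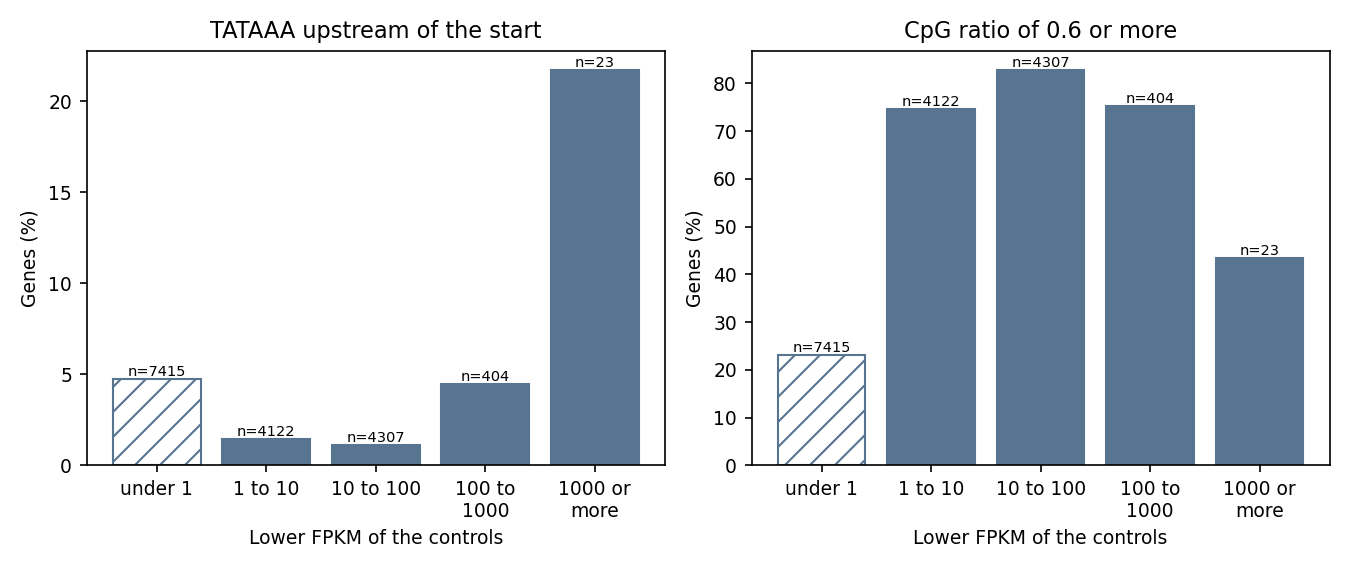
Share of protein-coding genes, in percent from 0, whose RefSeq promoter holds TATAAA from 40 to 15 bases before the start (left) or has a CpG ratio of 0.6 or more (right), by the lower FPKM of the controls, with the number of genes above each bar; the hatched group had promoters for 78.7% of its genes. The highest group has 21.7% with TATAAA and 43.5% with a high CpG ratio, from 23 genes.

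The 250 bases before the start are shown for 3 genes with the motif and 1 without it, to set an epidermal keratin, an epidermal envelope gene, an early response gene and a stem cell factor side by side. Capitals mark TATAAA in Krt10, Lor and Fos, and each CG pair in Lhx2.
Krt10: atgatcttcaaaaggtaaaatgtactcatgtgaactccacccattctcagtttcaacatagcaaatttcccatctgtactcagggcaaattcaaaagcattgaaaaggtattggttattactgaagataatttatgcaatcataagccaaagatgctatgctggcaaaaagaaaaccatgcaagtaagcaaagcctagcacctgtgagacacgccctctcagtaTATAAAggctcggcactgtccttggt
Lor: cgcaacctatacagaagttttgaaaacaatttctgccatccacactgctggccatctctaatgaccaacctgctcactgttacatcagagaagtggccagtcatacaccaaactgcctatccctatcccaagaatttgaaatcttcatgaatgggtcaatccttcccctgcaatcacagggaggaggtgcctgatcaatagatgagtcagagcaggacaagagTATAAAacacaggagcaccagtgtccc
Fos: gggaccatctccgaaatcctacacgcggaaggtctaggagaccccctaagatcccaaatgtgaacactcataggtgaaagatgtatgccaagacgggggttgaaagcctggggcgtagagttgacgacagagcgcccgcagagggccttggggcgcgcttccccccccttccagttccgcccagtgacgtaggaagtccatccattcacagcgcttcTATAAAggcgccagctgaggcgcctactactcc
Lhx2: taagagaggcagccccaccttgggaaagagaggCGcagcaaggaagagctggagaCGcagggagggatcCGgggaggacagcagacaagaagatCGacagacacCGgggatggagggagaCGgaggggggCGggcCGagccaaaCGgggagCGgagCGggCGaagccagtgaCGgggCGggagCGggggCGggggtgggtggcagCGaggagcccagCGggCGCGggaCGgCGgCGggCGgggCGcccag
The Krt10 window lies at chr11:99389365-99389614 on the minus strand, with TATAAA starting 26 bases before the start. The Lor window lies at chr3:92083143-92083392 on the minus strand, with TATAAA 27 bases before the start. The Fos window lies at chr12:85473640-85473889 on the plus strand, with TATAAA at 33 bases and 15 CG pairs. The Lhx2 window lies at chr2:38339031-38339280 on the plus strand before the first of its 2 RefSeq starts, and it holds 25 CG pairs, against 2 in Krt10 and 1 in Lor. Krt10 and Fos are at 1000 FPKM or more in both controls, Lor is in control 2 alone, and Lhx2 is at 359 and 195 FPKM.

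SOX9 binding had been mapped by chromatin immunoprecipitation in other mice, CD-1 females of 52 to 60 days with no RU486, whose stem cells were sorted without YFP, as 2 deposited peak lists. The share of protein-coding genes with a peak in both lists within 10 kb of the locus was 4.49% below the threshold, 14.7% at 1 to 10 FPKM, 22.5% at 10 to 100 and 35.3% at 100 or more, with median locus spans of 15.2, 36.4, 26.3 and 12.3 kb. Krt15, Krt5 and Lhx2 had such peaks and Cd34 had none.

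Genes of division were mostly expressed, at low levels. Of 37 genes of S phase and mitosis 25 (67.6%) were expressed, against 53.7% of protein-coding rows. Of these 25, 4 reached 10 FPKM in both libraries, against 51.3% of all expressed genes. Their medians were 3.55 and 4.28 FPKM, against 13.7 and 12.4 for all expressed genes. Pcna, the sliding clamp that also serves repair, was at 60.0 and 49.6 FPKM, Mki67, the common mark of dividing cells, at 1.45 and 0.809, Top2a at 5.03 and 4.67 and Cdk1 at 3.24 and 6.79. Of 22 cyclins, inhibitors and related genes of G1 21 were expressed. Btg2, an antiproliferative gene, was at 490.4 and 419 FPKM, Cdkn1a, the p21 gene, at 145 and 155, and Cdkn1b, the p27 gene, at 52.2 and 47.5. These inhibitors were at near-equal levels in both controls. Cdkn2a was listed at 0 in both.

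Markers of other cells that skin or the gate could hold were read next. Endothelial markers were at or near 0, with 0 of 8 expressed and Pecam1, the highest, at 0.0668 and 0.0906 FPKM. Of 10 fibroblast and papilla markers 4 were expressed, with sums over the list of 318 and 286 FPKM. These were Sparc at 288 and 260, Col1a2 at 14.8 and 7.40, Vim at 11.7 and 15.98 and Fn1 at 1.77 and 1.25. Pdgfra, Pdgfrb, Col3a1, Dcn and Lum were all below 0.34 FPKM. Melanocyte markers were expressed for 2 of 9, Merkel and nerve markers for 1 of 8, and muscle and fat markers for 2 of 10. In the sebocyte list 4 of 7 were expressed, with Scd1 at 85.6 and 44.0 FPKM, Plin2 at 35.6 and 55.6 and Elovl3 at 5.09 and 1.20, while Pparg was at 0.332 and 0.411. Hair shaft and root sheath markers were expressed for 3 of 10. Red blood cell markers were expressed for 2 of 6, with Hba-a1 at 6.22 and 20.7 FPKM and the near-identical Hba-a2 at 5.13 and 14.4.

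Epidermal lists stood higher. All 8 genes of the upper follicle and interfollicular basal layer were expressed, with sums of 371 and 807 FPKM. Most of that difference lay in Defb6, at 111 and 385, and Cst6, at 36.4 and 142, while Lrig1, Lgr6 and Gli1 were lower in control 2. Ly6a, the gene of Sca-1, whose protein the sort selected against, was at 26.4 and 45.8. Plet1, a junctional zone gene, was at 41.6 and 45.7 and Lrig1, a stem cell marker of that zone, at 31.9 and 25.0. Of 8 suprabasal epidermis markers 7 were expressed, and their sum was 4273 FPKM in control 1 and 12672 in control 2. Lor, the gene of the cornified envelope protein loricrin, was at 341 and 2775 FPKM. Ivl was at 21.0 and 45.1. The immune list had 7 of 12 expressed, with sums of 91.3 and 249.9 FPKM. The 4 most abundant were the MHC class II genes H2-Ab1, H2-Aa and H2-Eb1 and their invariant chain gene Cd74, at 28.4 and 71.0, and Cd207, the Langerhans cell lectin, was at 3.62 and 4.95. The common leukocyte gene Ptprc was at 0.155 and 0.390. The part that such cells have in the levels above was not tested.

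**Figure D4:**
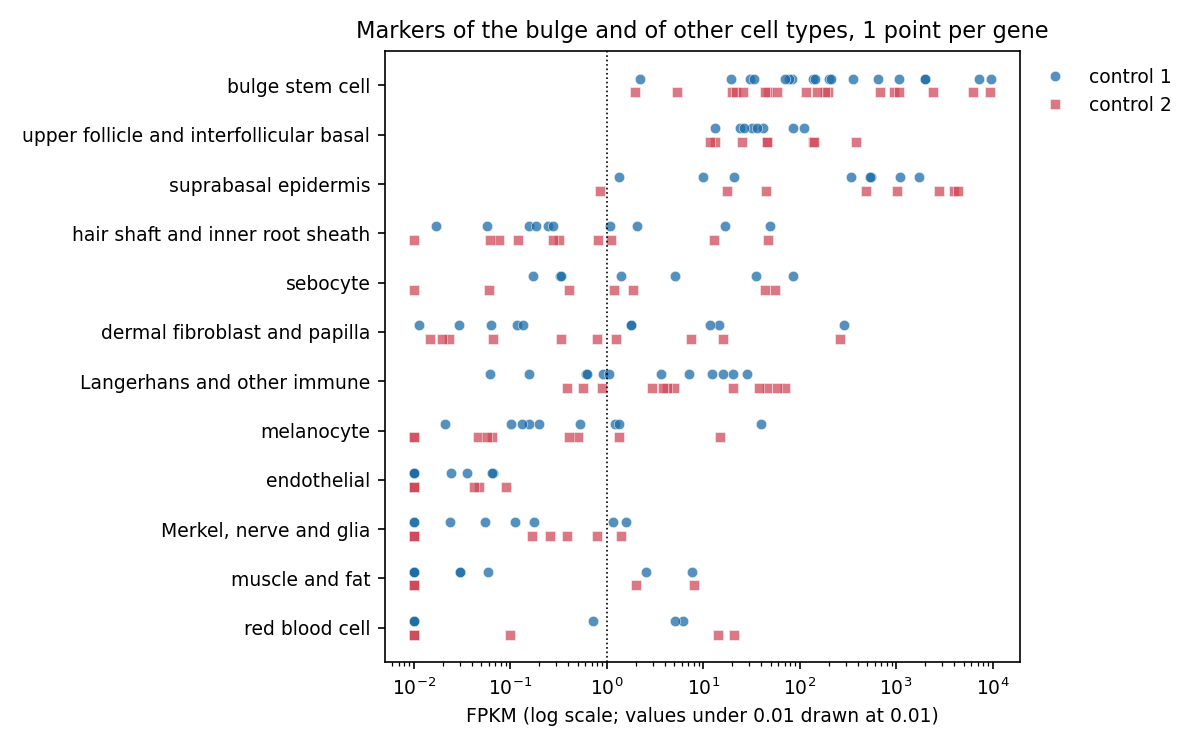
FPKM on a log scale of each marker gene of the bulge and of 11 other lists, with circles for control 1, squares for control 2 and a dotted line at 1 FPKM; values under 0.01 are drawn at 0.01. Endothelial markers lie far left of the line, and suprabasal epidermis markers reach above 1000 FPKM, further right in control 2.

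Many genes differed between the controls. Among expressed genes 1710 (12.5%) were at least 2-fold higher in control 2 and 1787 (13.1%) at least 2-fold higher in control 1. Against that background, 61 of 229 expressed transcription factors, 39 of 138 receptors and 19 of 72 matrix genes were 2-fold higher in control 1, while 14, 6 and 2 were 2-fold higher in control 2. For keratins the counts were 0 and 4, and for secreted proteins 13 and 21. Control 2 had the higher value, by any amount, for 49.3% of all expressed genes, for 79 of the 147 secreted protein genes and for 14 of the 72 matrix genes. With both libraries scaled to an equal FPKM sum, which moved the median log2 ratio of all expressed genes from -0.02 to -0.52, the counts higher in control 1 became 103, 73 and 44 for transcription factors, receptors and matrix. On that scale 4057 of all expressed genes (29.7%) were 2-fold higher in control 1 and 446 (3.27%) in control 2, and the secreted protein counts were 41 and 13. Keratins had 1 each.

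The ratio of the controls ran with the length of the locus, from the start to the end that the table gives. In the 25% of expressed genes with the shortest loci, up to 8.65 kb, the median ratio of control 2 to control 1 was 1.47. It was 1.06 up to 26.0 kb, 0.825 up to 66.9 kb and 0.722 beyond. Genes of ribosomal proteins had a median ratio of 2.59, above that of the shortest group, with 74 of 81 at least 2-fold higher in control 2. With the centring described next, 35 of the 81 remained so. Ratios were then centred within each of the 4 length groups. After that, 1281 of all 13653 expressed genes were 2-fold higher in control 1 and 1379 in control 2. Beside these, 43 of 229 transcription factors, 30 of 138 receptors and 9 of 72 matrix genes were 2-fold higher in control 1. The counts for control 2 were 15, 10 and 5. Library, sex and age cannot be told apart in this relation.

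**Figure D5:**
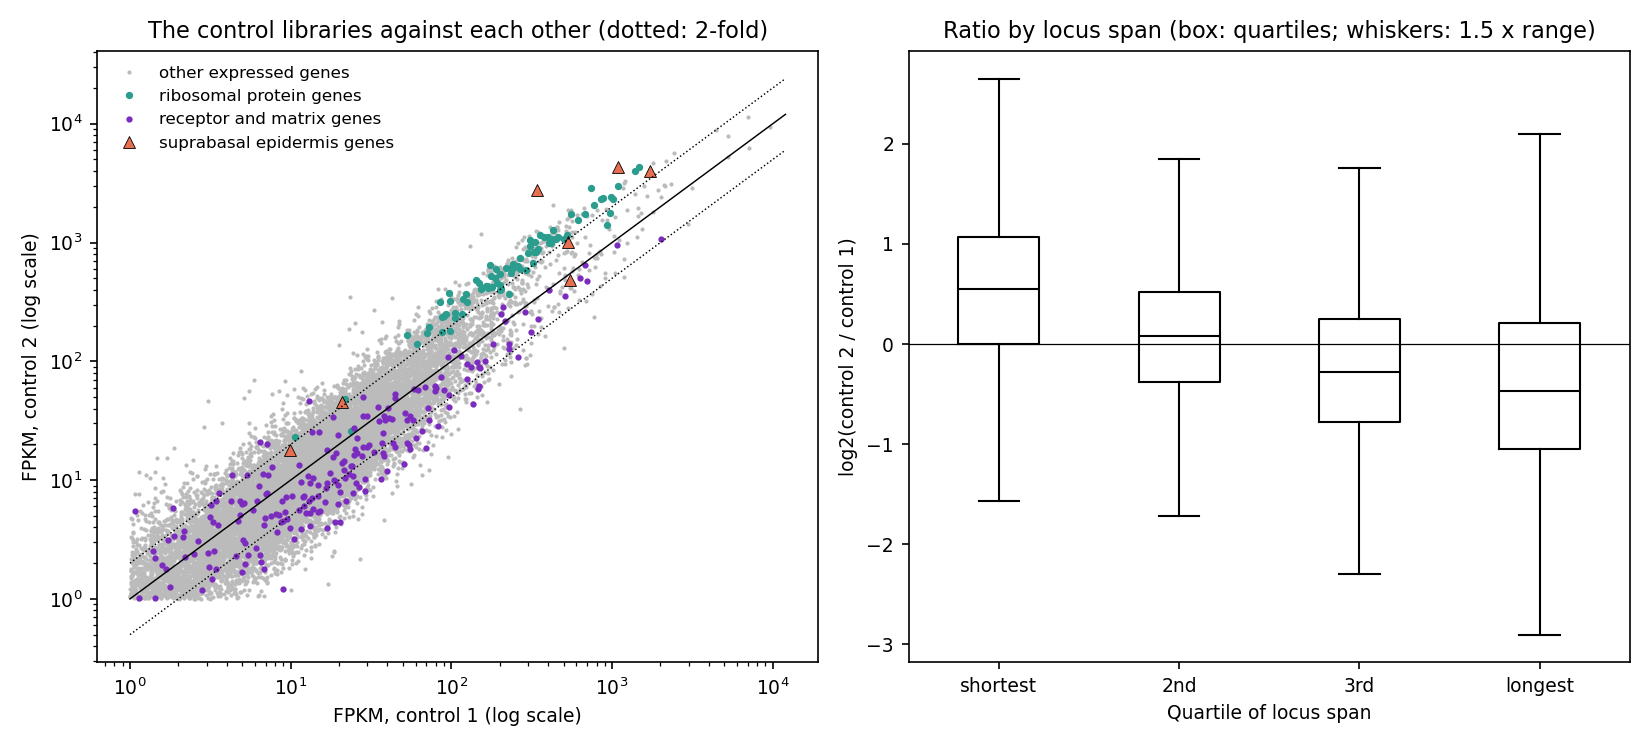
Left, FPKM of each expressed gene in control 2 against control 1 on log scales, with ribosomal protein, receptor and matrix, and suprabasal epidermis genes coloured, a solid line at equality and dotted lines at 2-fold. Right, log2 ratio of control 2 to control 1 in 4 equal groups by locus span (box, quartiles; whiskers, 1.5 times the box height); its median falls from the shortest to the longest loci.

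Among class members with a mean of at least 10 FPKM, the largest ratios toward control 2 were those of Il18, Krt23, Defb1, Krtdap, Klk7, Cst6, Dkkl1 and Il1r2. Il18, an epithelial cytokine, was at 10.5 FPKM in control 1 and 58.0 in control 2, a ratio of 5.50 that became 3.75 after centring by span. Krt23 was at 36.5 and 153.9, a ratio of 4.22, and Defb1, an antimicrobial peptide, at 12.6 and 51.4, a ratio of 4.07. Krtdap, Klk7 and Cst6 are genes of differentiating or upper follicle epidermis, and their ratios lay between 3.90 and 4.02. Krtdap is also in the suprabasal list.

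The largest ratios toward control 1 were those of Nfat5, Itga2, Tgfbr1, Bmpr2, Runx1, Nfatc1, Plxna2 and Cd44. Nfat5, an osmotic stress factor, was at 72.8 and 12.2 FPKM, a ratio of 5.97 that became 4.31 after centring. Nfatc1 was 3.87-fold higher in control 1, or 2.80-fold after centring. The receptors Tgfbr1 and Bmpr2 were at 16.9 and 3.96 and at 18.8 and 4.45 FPKM. Runx1, a factor of stem cell activation, was at 17.1 and 4.18. After centring, the ratios of these 8 were at least 2.67. The genes were picked for the largest ratios, and centring divided them by no more than 1.38. This outcome followed from the choice and is no check of the ratios.

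Near the threshold the call was a matter of small amounts. The named genes just inside were Cep152, Icam5 and Rerg, with lower values of 1.0001, 1.0002 and 1.0002 FPKM. Those just outside were Slc16a9, Grk4 and Gpr162, with lower values of 0.99997, 0.9995 and 0.9991 FPKM. Between 1 and 1.1 FPKM lay 100 named genes, and between 0.9 and 1 lay 113.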

How the data were processed

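Total RNA of sorted mouse hair follicle stem cells was sequenced with the Illumina TruSeq RNA kit, per the labels' protocols. The authors deposited gene values as FPKM, per the file headers, in a table for the build mm9. Cufflinks 1.0.3, TopHat, TopHat2 and Bowtie are listed in the submitters' processing notes, without their roles (strand setting and filters: not given in the sources used here). FPKM scales by length and library total, so a few abundant genes lower the rest. The low values showed no common step (0.537% of 5031 ratios in the fullest bin of 0.01), so depth, counting error and detection limits are unknown, and an exact 0 is given only as listed at 0. The SOX9 peak lists that the authors deposited hold positions alone.

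Expression came only from the 2 control libraries, and the SOX9 peaks from 2 lists of other mice (pandas 2.3.3, numpy 2.4.6). Expressed means at least 1 FPKM in both, and fold means a ratio of FPKM with no pseudocount. With 1 library of each sex and age no test was made, and precision is the pair of values. Of 1329 list members 1317 were found, by symbol or by Ensembl gene ID; 12 have several rows, of which 1 was used. Named genes are the 4 markers, the 20 highest means leaving out small RNA, pseudogene and clone rows, up to 4 of the highest per family with well known members below 1 as contrast, and the 8 largest ratios in each direction among class members with a mean of at least 10. Further members were named after their values were seen. A few genes that the rule would name are not reported here. Members and lists were chosen with earlier results of these data known. Alternatives were other minimums, scalings, a pseudocount, leaving out a library or row type, and, added later, centring by locus span. Promoters matched 80.3% or more of the genes in each expressed group; genes below 1 FPKM and most separate classes matched less often, and the classes are not reported.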

Additional observations from a re-analysis of the deposited data

How the results depend on the processing

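Of 63 recomputed values, 58 stayed near the reported ones (within 1.5 times for counts, within the spread of the controls for the share of FPKM). The 58 include the shares of FPKM with a library left out. Those lie within the spread by construction and are no check. The count of 13653 expressed genes lay between 9696 with a minimum of 5 FPKM and 14785 with 0.5. Without control replicate 1 or 2 it was 14251 or 14516. The keratin, transcription factor, receptor, secreted protein and matrix counts stayed within 1.5 times under every minimum, scaling and left-out library tried. The top 100 rows held a mean of 27.4% of FPKM, 25.3% to 29.4% with a library left out, and 34.1% without rows of small RNAs, pseudogenes and clones. The 2-fold counts between the controls moved most. Scaled to an equal FPKM sum, 446 genes were higher in control 2 and 4057 in control 1. Without small RNA, pseudogene and clone rows, 823 were higher in control 2. With a minimum of 5 FPKM, 898 were higher in control 1. Centring by locus span, chosen after seeing the data, gave 1379 and 1281. No paired analysis was possible because these 2 libraries, 1 of each sex and age, form no pairs.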

Other observations

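Several abundant genes stood outside the named classes. Anxa8 and Anxa2, calcium-dependent membrane binding proteins, were at 1648 and 2443 FPKM and at 1444 and 1679. Fxyd3, a regulator of the sodium pump, was at 1383 and 2557 FPKM, and Perp, a p53 target of the desmosome, at 1446.5 and 1966. Aqp3, the water and glycerol channel of basal keratinocytes, was at 1098 and 1052, and was among the few of these genes with near-equal values. The metallothioneins Mt1 and Mt2 were likewise close, at 832 and 834 and at 771 and 754 FPKM, as was Trim29 at 800 and 738. Zfp36 and Dusp1, early response genes that limit RNA stability and kinase signalling, were at 1188 and 721 and at 1041 and 555 FPKM, higher in control 1 as Fos and Egr1 were. The cornified envelope gene Lce1m was at 153 and 1190 FPKM, a ratio of 7.77 toward control 2, beside Lor. These genes were named after their values were seen, and no test was made.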
